A study of Homo sapiens with 18 samples.

Results

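IL1RAPL2 and 8 related genes that organize synapses were followed in BE(2)-m17 cells, a human neuroblastoma line of sympathetic neuron lineage. IL1RAPL2 was selected on its counts, which appeared in the ABCC1-overexpressing cells of the first experiment, and its paralog IL1RAPL1, the neurexins NRXN2 and NRXN3, the neuroligins NLGN1, NLGN2 and NLGN3, the phosphatase PTPRD and LRRTM2 were added as genes of the same synaptic system. They make up 9 of the 57905 Ensembl genes counted. All cells carried a Sleeping Beauty transposon (pSBbi-Hyg) with the amyloid precursor protein APP. The control line, called Puro, also carried the empty pSBbi-Pur vector, and the ABCC1 line carried pSBbi-Pur with codon-optimized wild-type ABCC1, an efflux transporter. Both lines were selected for stable expression with hygromycin and puromycin, and RNA was taken on day 4 from wells seeded with 14000000 cells. In each of 3 experiments, RNA1, RNA2 and RNA3, there were 3 Puro and 3 ABCC1 libraries, 18 in all. The labels only number the experiments. The study describes a first experiment, a repeat with cryopreserved cells and a repeat with newly transfected cells, in that order. RNA1 used an mRNA kit, and RNA2 and RNA3 a total RNA kit on another instrument, so kit, instrument and experiment cannot be told apart when RNA1 is set beside the others. Replicates were platings of the same line in different weeks, so p-values here measure the spread between cultures of 1 line per arm.

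Synaptic organizers are adhesion proteins that span the synaptic cleft. Neurexins sit mainly on the presynaptic side and bind neuroligins and LRRTM proteins on the postsynaptic side, while PTPRD, a presynaptic receptor phosphatase, binds postsynaptic IL1RAPL1. IL1RAPL1 and IL1RAPL2 are X-linked members of the interleukin 1 receptor family that are expressed mainly in the brain, and loss of IL1RAPL1 is a known cause of intellectual disability.

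Depth ran from 27433393 to 57937653 assigned read pairs per library in RNA1, from 19577853 to 30996228 in RNA2 and from 8866994 to 13332413 in RNA3. The codon-optimized ABCC1 sequence had 0 to 15 counts in the Puro libraries and 51035 to 594404 in the ABCC1 libraries, as labelled. All 12 neuroblastoma markers passed the count filter in every experiment, and they summed to between 7022 and 13937 CPM (counts per library, scaled to the same total in each) in every library. Reads on genes not expected in these cells were measured on 263 olfactory receptor genes, odorant receptors of the nasal epithelium, whose span overlaps no other gene. Their level was 0.00375 CPM per kb of exon in Puro and 0.00235 in ABCC1 in RNA1. In RNA2 it was 0.617 ± 0.103 in Puro and 0.325 ± 0.156 in ABCC1 (SD, n = 3), and in RNA3 1.67 ± 0.0808 and 1.33 ± 0.19. ABCC1 replicate 1 of RNA2 stood apart with 0.152, against 0.366 and 0.456 in the other ABCC1 libraries of that experiment. This olfactory receptor level is set beside the genes below, since it was lower in every ABCC1 library than in every Puro library of the same experiment. Fits with this level as a covariate are given below. The covariate was the log2 of the level scaled by total counts alone. In RNA1 and RNA2 it did not overlap between the lines, so the covariate and the line cannot be told apart there. In RNA3 it overlapped in part, with levels of 1.87, 1.48 and 1.88 in Puro and 1.60, 1.13 and 1.08 in ABCC1. There the covariate and the line can be told apart only in part.

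In RNA1, IL1RAPL2 went from no counts in the empty vector control to a level like that of the better expressed genes of the set. Puro libraries had 0, 0 and 0 counts, and ABCC1 libraries had 223, 162 and 242. The ABCC1 level was 4.38 ± 0.568 CPM (SD, n = 3), or 1.39 ± 0.180 CPM per kb. Set against a floor of 3 counts per Puro library, which is the limit a count of 0 allows, IL1RAPL2 was at least 47.9-fold higher. The gene was chosen for this difference, so it is a description with no test. The olfactory receptor level of the same libraries was lower in ABCC1 than in Puro. Of the 26091 genes with 0 counts in all 3 Puro libraries of RNA1, 26 had more than 3 counts in every ABCC1 library, 12 had at least 10, and 2, IL1RAPL2 and ENSG00000236098, had at least 100. In bulk RNA, few cells with much IL1RAPL2 RNA and many cells with little cannot be told apart. The floor covers the error of counting alone, because copies made by amplification could not be told from separate molecules.

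IL1RAPL2 (ENSG00000189108) lies on the plus strand of the X chromosome, chrX:103810996-105011822 in GRCh37. Its span of 1200.8 kb is longer than that of 99.9% of the genes counted, and its merged exons hold 3146 bases in 12 blocks, 0.262% of the span. Counts were made on exons only. The sequence around the RefSeq start of IL1RAPL2 is shown with those of its paralog IL1RAPL1, which had 4 to 9 counts per RNA1 library, and of NLGN2, the highest member per kb in that experiment. Each window runs from 250 bases before the start to 50 bases after it, in the GRCh38.p14 assembly, which is not the build of the count files. The windows are chrX:104565949-104566248, chrX:28587196-28587495 and chr17:7407595-7407894, all on the plus strand, and capitals mark the dinucleotide CG, which reads the same on both strands.
IL1RAPL2: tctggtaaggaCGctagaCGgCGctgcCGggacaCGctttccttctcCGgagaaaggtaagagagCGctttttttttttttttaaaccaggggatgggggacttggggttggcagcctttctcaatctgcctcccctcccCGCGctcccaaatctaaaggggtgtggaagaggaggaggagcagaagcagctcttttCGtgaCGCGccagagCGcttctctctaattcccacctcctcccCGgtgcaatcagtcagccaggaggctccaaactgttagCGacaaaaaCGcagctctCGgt
IL1RAPL1: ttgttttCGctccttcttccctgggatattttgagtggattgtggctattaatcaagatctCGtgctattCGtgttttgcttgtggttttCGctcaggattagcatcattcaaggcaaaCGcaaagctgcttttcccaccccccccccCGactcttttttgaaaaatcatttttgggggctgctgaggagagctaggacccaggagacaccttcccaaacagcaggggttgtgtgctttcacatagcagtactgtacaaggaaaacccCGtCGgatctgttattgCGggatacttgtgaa
NLGN2: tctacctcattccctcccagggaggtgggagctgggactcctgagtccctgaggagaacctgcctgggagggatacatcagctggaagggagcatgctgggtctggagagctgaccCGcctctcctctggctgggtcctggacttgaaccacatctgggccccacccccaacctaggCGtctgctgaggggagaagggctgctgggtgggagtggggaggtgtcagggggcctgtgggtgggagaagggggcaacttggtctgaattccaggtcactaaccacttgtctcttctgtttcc
The IL1RAPL2 window held 17 CG dinucleotides, the IL1RAPL1 window 9 and the NLGN2 window 2. Over all 35116 RefSeq windows the median was 14, and 96.0% of windows held at least 1. Fewer CG than in IL1RAPL2 were found in 54.0% of windows, fewer than in IL1RAPL1 in 41.6% and fewer than in NLGN2 in 11%. The data hold no measurement of DNA methylation or factor binding. For 8 of the 9 members at least 1 window was found.

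In RNA2 and RNA3 IL1RAPL2 had counts in both lines, and the lines overlapped. In RNA2 the Puro libraries had 36, 55 and 9 counts and the ABCC1 libraries 6, 15 and 81. The highest library, ABCC1 replicate 3, and the lowest, ABCC1 replicate 1, belonged to the same group. The fitted log2FC was -0.12 with an SE of 0.70 (edgeR adjusted p = 0.934). It was -1.48 without ABCC1 replicate 3 (edgeR adjusted p = 0.238) and 0.37 without ABCC1 replicate 1 (edgeR adjusted p = 0.791). In RNA3 the Puro libraries had 24, 24 and 28 counts and the ABCC1 libraries 27, 7 and 26, so a single ABCC1 library was low and the other two lay among or beside the Puro values. The log2FC was -0.52 with an SE of 0.45 (edgeR adjusted p = 0.636). IL1RAPL2 was above the olfactory receptor level of its own library in 2 of these 12 libraries, with a ratio between 0.154 and 1.82 and a median of 0.507. In the RNA1 ABCC1 libraries the same ratio was between 470 and 718.

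**Figure D1:**
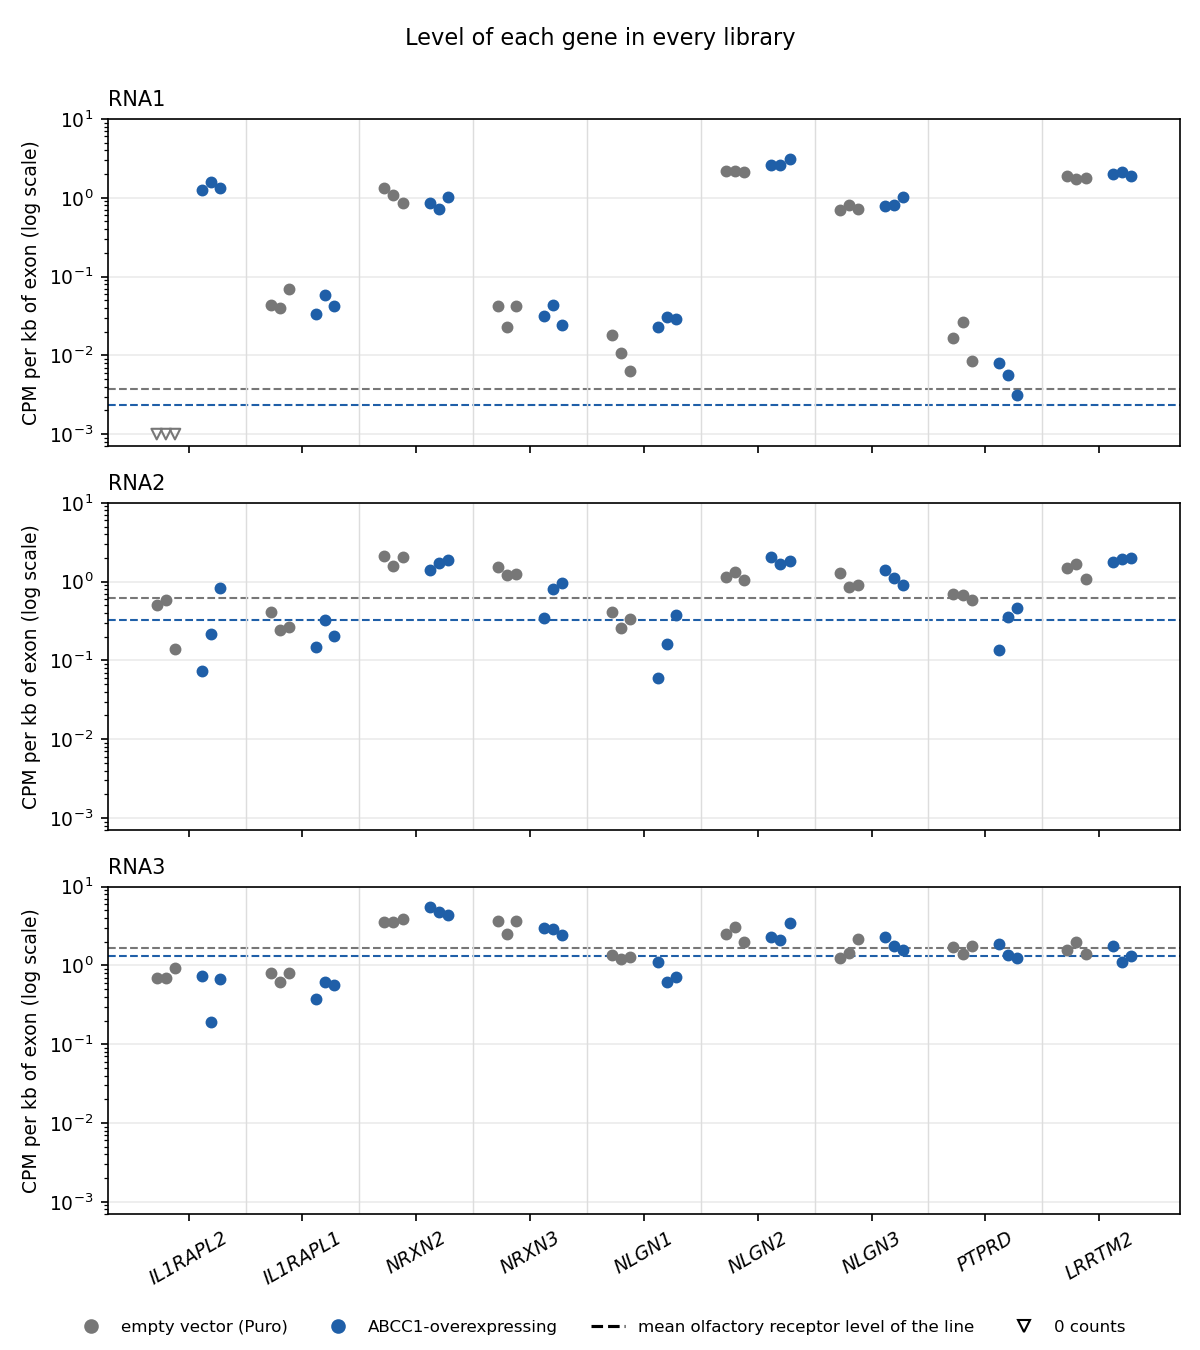
Level of the 9 genes in CPM per kb of exon (log axis) in each of the 18 libraries, grey for empty vector and blue for ABCC1, with open triangles for 0 counts and dashed lines for the mean olfactory receptor level of each line. In RNA1 IL1RAPL2 had 0 counts in Puro and a mean of 1.39 CPM per kb in ABCC1, and in RNA2 and RNA3 most IL1RAPL2 points sat below the dashed lines.

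The surroundings of IL1RAPL2 were read for other genes that moved with it. Of 46 genes within 1 Mb of its span, 19 of them protein coding, 12 passed the count filter in RNA1. GLRA4, a glycine receptor subunit gene 827 kb upstream on the opposite strand, was the 1 neighbour called higher. It had 2, 2 and 1 counts in Puro and 43, 25 and 54 in ABCC1 (log2FC 4.0, SE 0.37, edgeR adjusted p = 1.56e-05). The 4 neighbours called lower were TCEAL3, MORF4L2, RAB9B and ENSG00000176274, with log2FC between -0.22 and -0.73. Over all genes tested in RNA1, 37.6% were called. The 5 genes inside the IL1RAPL2 span had 1 count in all in Puro and 7 in ABCC1. Of these KCTD9P2, a processed pseudogene on the same strand, had 0, 0 and 0 counts in Puro and 4, 1 and 1 in ABCC1. NRK, a kinase gene 54.7 kb beyond the end of IL1RAPL2, had 0 counts in 5 of the 6 libraries and 2 in ABCC1 replicate 2, and SERPINA7 and ESX1 had none. By edgeR none of the 21 neighbours tested in RNA2 was called, and none of the 26 tested in RNA3, beside 1.7% and 2.8% of all genes tested. At an unadjusted p below 0.05 there were 2 in RNA2 and 2 in RNA3, beside 21.2% and 15.2% of all genes tested, and DESeq2 called 0 of the 9 and 0 of the 5 neighbours to which it gave an adjusted p, beside 16.8% and 11.2% of all genes with one. GLRA4 was then lower in every ABCC1 library, from a mean of 2.07 to 0.754 CPM in RNA2 (edgeR adjusted p = 0.155) and from 4.17 to 2.65 CPM in RNA3 (edgeR adjusted p = 0.377), and its level was 0.714 to 1.66 times the olfactory receptor level of the same library.

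**Figure D2:**
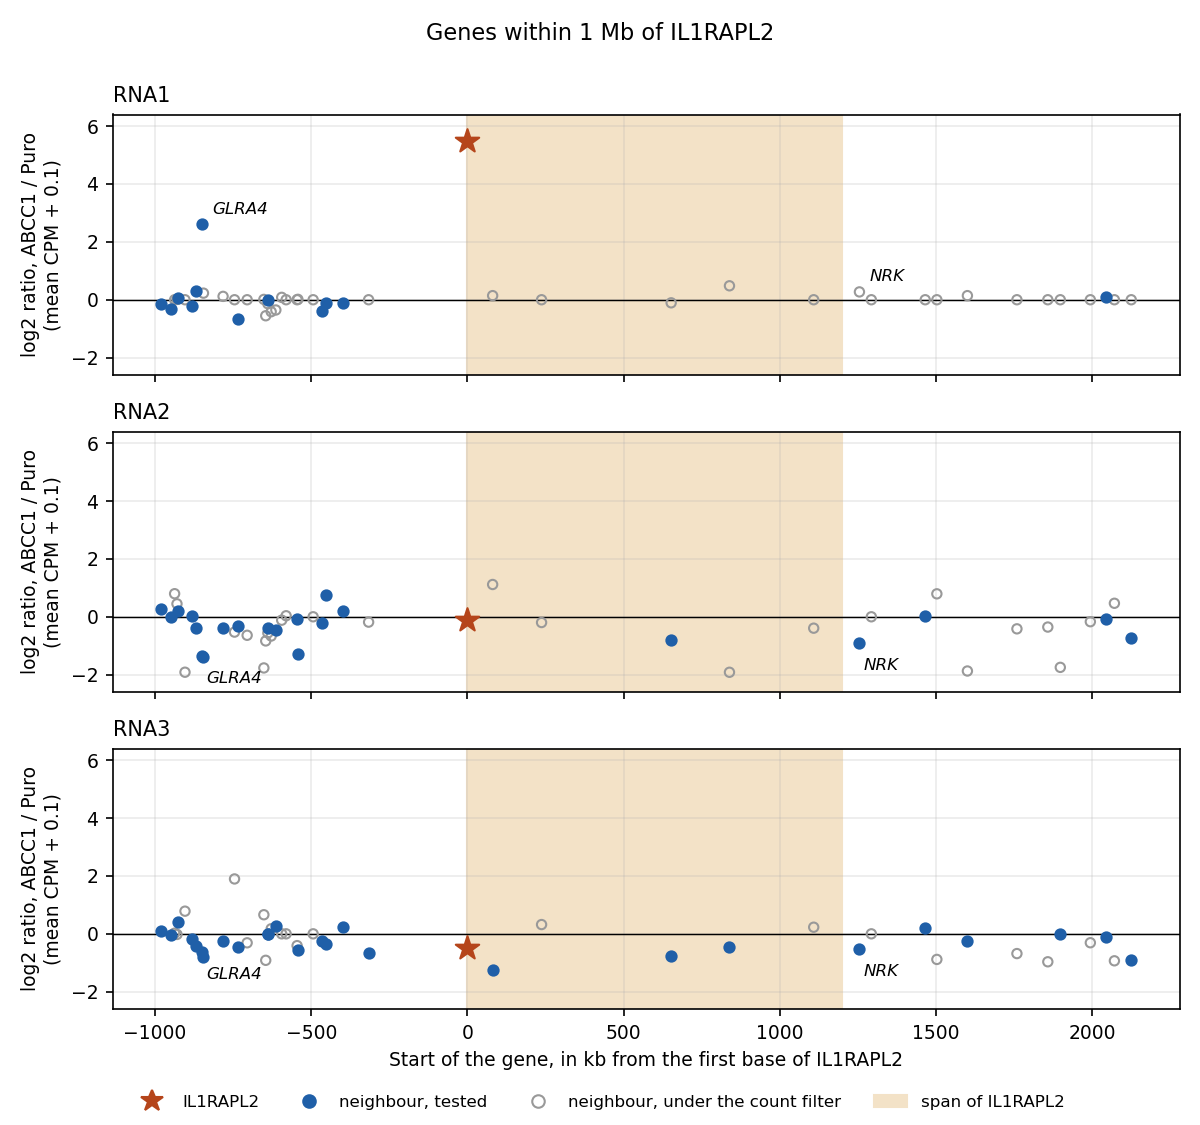
Log2 ratio of ABCC1 over Puro (means of 3 libraries, 0.1 CPM added to each) for the 46 genes within 1 Mb of IL1RAPL2, against their start in kb from its first base; the star is IL1RAPL2, filled points passed the count filter and the shaded band is the IL1RAPL2 span. In RNA1 IL1RAPL2 and GLRA4 stand above the other genes, while KCTD9P2, inside the span, sits at 0.48 and NRK at 0.27.

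The 5 genes whose log2 CPM across the 18 libraries was most like that of IL1RAPL2, among 16995 genes, were LGSN (Pearson's r 0.90), ENSG00000236098 (0.89), FMN1 (0.88), ERFL (0.85) and PLXNA4 (0.84). They lie on chromosomes 6, 1, 15, 19 and 7, and none is a member. The libraries share lines and experiments, so r is a description and carries no test. LGSN, which encodes lengsin of the eye lens, had 10, 3 and 6 counts in RNA1 Puro and 187, 110 and 192 in RNA1 ABCC1. ENSG00000236098 had 0, 0 and 0 counts and then 205, 114 and 195. FMN1, a formin that builds actin filaments, had 273, 198 and 230 and then 1167, 651 and 1066. PLXNA4, a semaphorin receptor, had 107, 79 and 101 and then 809, 432 and 786. Since they were chosen for their likeness to IL1RAPL2, their RNA1 difference is part of the choice. The gene after these 5 had an r of 0.837, and with 1 CPM added in place of 0.1, 3 of the 5 genes were the same.

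Among the receptors, the paralog IL1RAPL1 (ENSG00000169306, chrX:28605516-29974840) did not share the RNA1 pattern. It had 7, 4 and 8 counts in RNA1 Puro and 7, 7 and 9 in RNA1 ABCC1, and did not reach the count filter. In RNA2 it had 34, 27 and 20 counts in Puro and 14, 26 and 23 in ABCC1 (log2FC -0.45, SE 0.63, edgeR adjusted p = 0.696). The RNA3 counts were 32, 25 and 28 in Puro and 16, 26 and 25 in ABCC1. In CPM every RNA3 ABCC1 library was below every Puro library, at 1.89 ± 0.459 against 2.7 ± 0.374 (SD, n = 3), and the log2FC was -0.51 with an SE of 0.41 (edgeR adjusted p = 0.609). IL1RAPL1 was below the olfactory receptor level in all 12 libraries of RNA2 and RNA3, at 0.242 to 0.962 times that level.

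PTPRD (ENSG00000153707, chr9:8314246-10612723, minus strand) encodes the presynaptic phosphatase that binds IL1RAPL1. It had 8, 8 and 3 counts in RNA1 Puro and 5, 2 and 2 in RNA1 ABCC1, under the count filter. In RNA2 it had 175, 227 and 135 counts in Puro and 39, 85 and 157 in ABCC1, from 7.28 ± 0.676 to 3.48 ± 1.82 CPM (SD, n = 3). Every RNA2 ABCC1 library was lower in CPM, with a log2FC of -1.06 and an SE of 0.35, but the test was not passed (edgeR adjusted p = 0.0958). Without ABCC1 replicate 3 it was -1.41 (edgeR adjusted p = 0.0356), and without ABCC1 replicate 1 it was -0.69 (edgeR adjusted p = 0.235). The olfactory receptor level was lower in the same ABCC1 libraries, and PTPRD stayed at 0.887 to 1.32 times that level in all 12 libraries of RNA2 and RNA3. With the olfactory receptor level as a covariate, the RNA2 log2FC of PTPRD was -0.11 (edgeR adjusted p = 0.990), in a fit where that level and the line cannot be told apart. In RNA3 the counts were 208, 173 and 187 in Puro and 241, 177 and 166 in ABCC1, and the lines overlapped (log2FC -0.13, SE 0.18, edgeR adjusted p = 0.795).

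Of the neurexins, the presynaptic partners of neuroligins and LRRTM2, NRXN2 was higher in every ABCC1 library of RNA3. NRXN3 was lower in every ABCC1 library of RNA2, and neither passed the edgeR test. DESeq2 called both, NRXN2 in RNA3 (DESeq2 adjusted p = 0.0233) and NRXN3 in RNA2 (DESeq2 adjusted p = 0.0433), beside 11.2% and 16.8% of all genes with an adjusted p. NRXN2 (ENSG00000110076, chr11:64373646-64490660, minus strand) had 605, 317 and 289 counts in RNA1 Puro and 516, 246 and 621 in RNA1 ABCC1, or 11.6 ± 2.37 and 9.15 ± 1.54 CPM (SD, n = 3), and the lines overlapped. In RNA2 the counts were 499, 494 and 447 in Puro and 386, 403 and 614 in ABCC1 (log2FC -0.18, SE 0.17, edgeR adjusted p = 0.562). In RNA3 the counts were 410, 411 and 391 in Puro and 693, 596 and 560 in ABCC1. Every RNA3 ABCC1 library was above every Puro library, at 52.2 ± 6.56 against 38.5 ± 2.00 CPM (SD, n = 3), with a log2FC of 0.44 and an SE of 0.16 that did not pass the test (edgeR adjusted p = 0.128). It passed with the olfactory receptor level as a covariate, which overlapped only in part between the lines in RNA3 (log2FC 0.65, edgeR adjusted p = 0.0317). NRXN2 was the member farthest above the olfactory receptor level in RNA2 and RNA3 by its median ratio of 3.49, with a range of 2.09 to 9.19. An antisense gene, NRXN2-AS1, has a span that covers 9.90% of the exon bases of NRXN2, but its exons share 0 bases with them. It had 0 to 2 counts per library in RNA1, 10 to 34 in RNA2 and 22 to 40 in RNA3.

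NRXN3 (ENSG00000021645, chr14:78708734-80330762) had 21, 7 and 15 counts in RNA1 Puro and 20, 16 and 16 in RNA1 ABCC1, a low level in both lines. In RNA2 it had 389, 408 and 296 counts in Puro and 103, 199 and 337 in ABCC1, from 15.0 ± 1.90 to 7.97 ± 3.61 CPM (SD, n = 3). Every RNA2 ABCC1 library was lower in CPM, and the log2FC of -0.91 with an SE of 0.25 lay just outside the threshold (edgeR adjusted p = 0.0609). It was -1.18 without ABCC1 replicate 3 (edgeR adjusted p = 0.0205) and -0.57 without ABCC1 replicate 1 (edgeR adjusted p = 0.178). NRXN3 stayed at 2.07 to 2.32 times the olfactory receptor level in the 6 RNA2 libraries, and with that level as a covariate, which did not overlap between the lines, the log2FC was -0.02 (edgeR adjusted p = 0.998). In RNA3 the counts were 460, 311 and 401 in Puro and 400, 383 and 333 in ABCC1, and the lines overlapped (log2FC -0.24, SE 0.16, edgeR adjusted p = 0.519).

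Of the neuroligins, the postsynaptic ligands of neurexins, NLGN2, which organizes inhibitory synapses, was the highest member per kb in RNA1. NLGN2 (ENSG00000169992, chr17:7308193-7323179) had 524, 326 and 367 counts in RNA1 Puro and 814, 467 and 1009 in RNA1 ABCC1, or 11.9 ± 0.216 and 15.4 ± 1.71 CPM (SD, n = 3). The RNA1 groups did not overlap, as for 50.4% of the genes tested there, and the log2FC was 0.38 with an SE of 0.08. With the olfactory receptor level as a covariate, which cannot be told apart from the line, it was -0.05. In RNA2 the counts were 144, 222 and 121 in Puro and 301, 203 and 316 in ABCC1, from 6.54 ± 0.814 to 10.3 ± 1.11 CPM (SD, n = 3). Again every ABCC1 library was higher, with a log2FC of 0.66 and an SE of 0.23, which missed the threshold (edgeR adjusted p = 0.113). In RNA3 the counts were 151, 187 and 107 in Puro and 150, 137 and 232 in ABCC1, with a log2FC of 0.06 and an SE of 0.19 (edgeR adjusted p = 0.920). The RNA3 lines overlapped, and ABCC1 replicate 3 alone was above all Puro libraries. NLGN2 was above the olfactory receptor level in all 12 libraries of RNA2 and RNA3, by 1.15 to 13.7 times.

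NLGN1, which acts at excitatory synapses, showed opposite orders of the lines in RNA1 and RNA3. NLGN1 (ENSG00000169760, chr3:173114074-174004434) had 8, 3 and 2 counts in RNA1 Puro and 13, 10 and 17 in RNA1 ABCC1, higher in every ABCC1 library but under the count filter. In RNA2 it had 94, 79 and 71 counts in Puro and 16, 36 and 120 in ABCC1, and the lines overlapped (log2FC -0.72, SE 0.50, edgeR adjusted p = 0.398). In RNA3 it had 152, 135 and 124 counts in Puro and 130, 72 and 87 in ABCC1, from 13 ± 0.795 to 8.16 ± 2.60 CPM (SD, n = 3). Every RNA3 ABCC1 library was lower, and the log2FC of -0.67 with an SE of 0.22 did not pass the test (edgeR adjusted p = 0.0716). Without ABCC1 replicate 1, which lay nearest to Puro, the log2FC was -0.91 (edgeR adjusted p = 0.00807). NLGN1 was below the olfactory receptor level in all 12 libraries of RNA2 and RNA3, at 0.397 to 0.836 times that level, and in RNA3 this ratio was also lower in every ABCC1 library. With that level as a covariate the RNA3 log2FC of NLGN1 was -0.23 (edgeR adjusted p = 0.866).

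NLGN3 (ENSG00000196338, chrX:70364681-70391051), found at both excitatory and inhibitory synapses, had overlapping lines in every experiment. Its counts were 121, 89 and 92 in RNA1 Puro and 180, 105 and 238 in RNA1 ABCC1, with a log2FC of 0.25 and an SE of 0.13, and of -0.40 with the olfactory receptor level as a covariate. In RNA2 they were 116, 101 and 76 in Puro and 148, 98 and 111 in ABCC1 (log2FC 0.17, SE 0.33, edgeR adjusted p = 0.785). In RNA3 they were 54, 63 and 84 in Puro and 108, 82 and 77 in ABCC1 (log2FC 0.23, SE 0.26, edgeR adjusted p = 0.736). The ratio of NLGN3 to the olfactory receptor level was nevertheless higher in every ABCC1 library of each experiment.

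LRRTM2 (ENSG00000146006, chr5:138204612-138211057, minus strand), a leucine-rich repeat protein of excitatory synapses that binds neurexins, lies wholly inside CTNNA1 on the opposite strand and shares 445 exon bases with it. The counting did not use strand, so reads from the shared bases cannot be told apart, and CTNNA1 was at 52.5 to 165 CPM in the Puro lines. LRRTM2 had 501, 287 and 339 counts in RNA1 Puro and 690, 419 and 674 in RNA1 ABCC1, or 10.9 ± 0.515 and 12.3 ± 0.686 CPM (SD, n = 3). CTNNA1 was lower in the same RNA1 ABCC1 libraries, with a log2FC of -0.35. In RNA2 LRRTM2 had 207, 301 and 136 counts in Puro and 283, 259 and 373 in ABCC1, higher in CPM in every ABCC1 library (log2FC 0.43, SE 0.21, edgeR adjusted p = 0.248). In RNA3 the counts were 104, 132 and 81 in Puro and 127, 78 and 98 in ABCC1, and the lines overlapped (log2FC -0.22, SE 0.23, edgeR adjusted p = 0.701). LRRTM2 was above the olfactory receptor level in 9 of the 12 libraries of RNA2 and RNA3, and in RNA3 it was at 0.796 to 1.24 times that level.

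**Figure D3:**
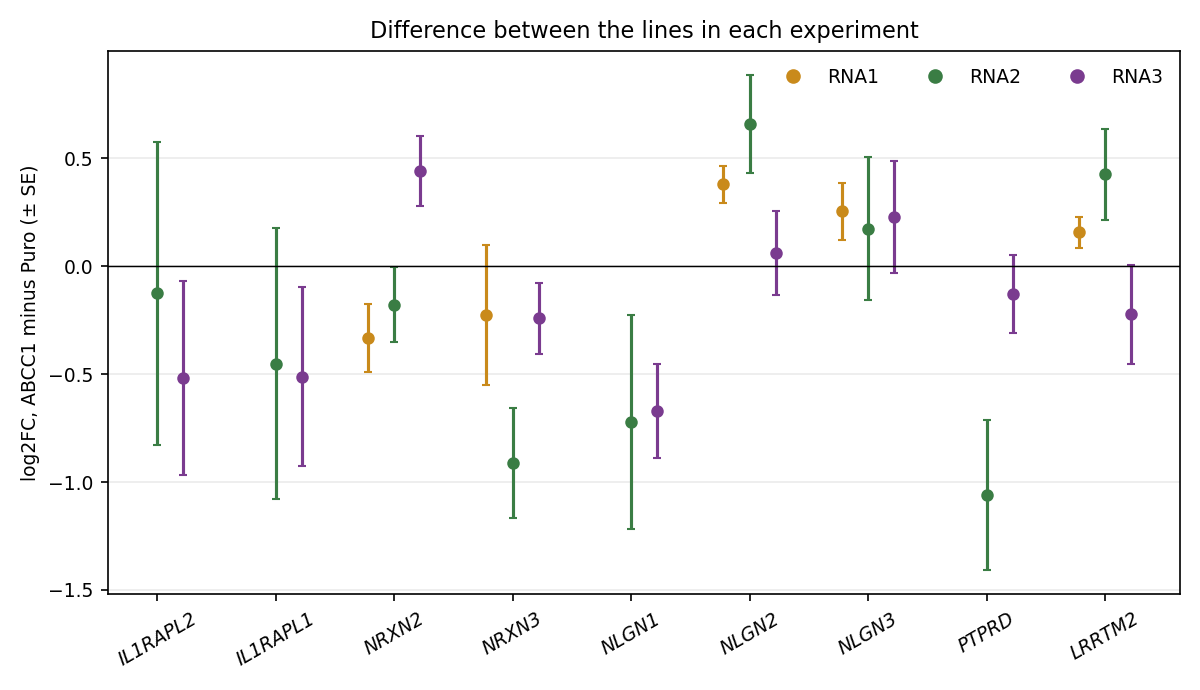
Log2FC of ABCC1 minus Puro with its SE for the 9 genes in RNA1, RNA2 and RNA3 (IL1RAPL2 in RNA1, where Puro had 0 counts, and the 3 genes under the RNA1 count filter are not drawn). NLGN2, NLGN3 and LRRTM2 lie above 0 in RNA1 and RNA2, and PTPRD and NRXN3 lie lowest in RNA2.

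**Figure D4:**
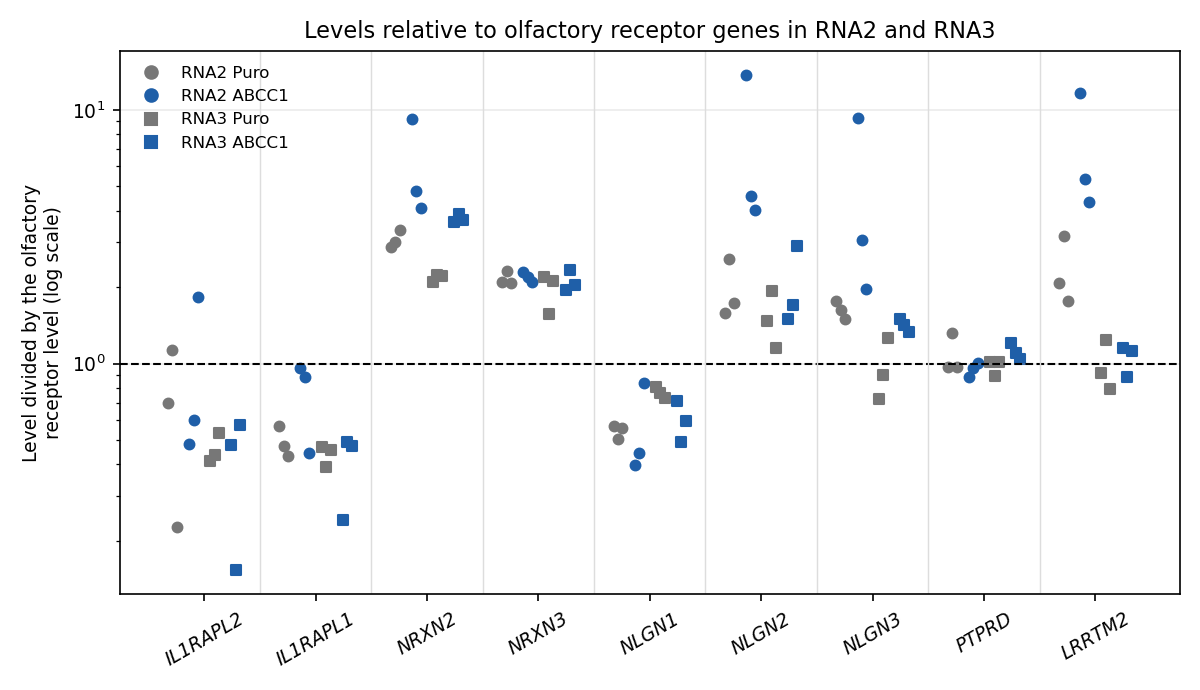
Level per kb of each gene divided by the olfactory receptor level of the same library (log axis) in the 12 libraries of RNA2 (circles) and RNA3 (squares), grey for Puro and blue for ABCC1. PTPRD sits within 0.887 and 1.32 of the dashed line at 1, IL1RAPL1 and NLGN1 sit below it in every library, and NRXN2, NRXN3 and NLGN2 sit above it in every library.

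At an adjusted p of at most 0.05, none of the 9 members was called in RNA2, where 1.7% of the 34091 genes tested were called, and none in RNA3, where 2.8% of 36509 were. At an unadjusted p below 0.05 there were 3 members in RNA2 (NRXN3, PTPRD and NLGN2) and 2 in RNA3 (NLGN1 and NRXN2), beside 21.2% and 15.2% of all genes tested. DESeq2 gave an adjusted p to 7 members in RNA2 and called 3, beside 16.8% of the 16244 genes with an adjusted p, and gave one to 6 members in RNA3 and called 1, beside 11.2% of 13856. In RNA1 6 members were tested and 2 passed, among 37.6% of 16995 genes called, and nothing is read from this since that contrast chose the set. The CPM of the lines did not overlap for 4 of 9 members in RNA2, against 29.8% of the genes tested, and for 3 of 9 in RNA3, against 19.5%. For each of these the exact two-sided permutation test gave p = 0.1, the smallest that 3 against 3 libraries allow. The median log2FC of the 9 members was -0.18 in RNA2, against -0.19 over all genes tested, and -0.22 in RNA3, against -0.09. RLE size factors moved the RNA2 median of all genes by 0.106.

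The difference of the line effect between RNA3 and RNA2 was tested by the interaction in a joint fit of their 12 libraries. None of the 9 members was called by edgeR or DESeq2, with 0.00724% of 41448 genes called by edgeR and 0.00965% by DESeq2, and 3 had an unadjusted p below 0.05, beside 6.35% of all genes tested. The difference was 0.96 for PTPRD (SE 0.37, edgeR adjusted p = 0.710), 0.65 for NRXN2 (SE 0.23, edgeR adjusted p = 0.710) and 0.70 for NRXN3 (SE 0.32, edgeR adjusted p = 0.756). For IL1RAPL2 it was -0.37 with an SE of 0.89 (edgeR adjusted p = 0.969). With 1 library left out, the difference ran from 0.60 to 1.36 for PTPRD, from 0.54 to 0.79 for NRXN2 and from 0.38 to 1.01 for NRXN3.

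In order of level per kb, RNA1 Puro ran from NLGN2 (2.14 ± 0.0389 CPM per kb) through LRRTM2 (1.79 ± 0.0845), NRXN2 (1.09 ± 0.224) and NLGN3 (0.746 ± 0.0626) to IL1RAPL1, NRXN3, PTPRD and NLGN1, all at or below 0.0510 (SD, n = 3), with IL1RAPL2 last at 0 counts. The first 4 did not overlap with their neighbours in this order, and IL1RAPL1, NRXN3, PTPRD and NLGN1 overlapped with theirs. In RNA1 ABCC1 IL1RAPL2 took the third place, below LRRTM2 (2.01 ± 0.113) and above NLGN3 (0.877 ± 0.128), overlapping with neither. In RNA2 Puro NRXN2 (1.89 ± 0.289), LRRTM2 (1.41 ± 0.300), NRXN3 (1.33 ± 0.167), NLGN2 (1.18 ± 0.147) and NLGN3 (1.01 ± 0.235) followed each other with overlap. PTPRD (0.657 ± 0.0610) came next and overlapped with neither neighbour, and IL1RAPL2, NLGN1 and IL1RAPL1 were the lowest and overlapped. In RNA3 NRXN2 led in both lines, at 3.63 ± 0.189 in Puro and 4.94 ± 0.620 in ABCC1. IL1RAPL2 and IL1RAPL1 were the lowest in RNA3 Puro, at 0.771 ± 0.135 and 0.736 ± 0.102, and overlapped.

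IL1RAP, the accessory protein of the interleukin 1 receptor for which IL1RAPL2 is named, was read beside the members. It was under the count filter in RNA1 and had a log2FC of -0.65 in RNA3 (edgeR adjusted p = 0.0605). Its level was 0.554 to 1.13 times the olfactory receptor level over the 12 libraries of RNA2 and RNA3. Of the 8 receptors listed for the interleukin 1 family outside the members, 1 passed the filter in RNA1 and all 8 in RNA2 and RNA3. By edgeR 0 were called in each experiment, beside 37.6%, 1.7% and 2.8% of all genes tested. At an unadjusted p below 0.05 there were 0, 3 and 3, beside 46.6%, 21.2% and 15.2%, and DESeq2 called 0 of the 1, 4 and 3 to which it gave an adjusted p, beside 32.6%, 16.8% and 11.2%. In RNA2 all 8 had a log2FC below 0, with a median of -0.98 against -0.19 over all genes tested, and they summed to between 23.0 and 28.6 CPM in Puro and between 7.95 and 16.9 in ABCC1, in libraries where the olfactory receptor level was also lower. In RNA3 the median was -0.37, against -0.09. In RNA1 5 of the 8 had at most 3 counts in every library.

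Among 55 other synaptic organizers, 7 were called higher and 18 lower of 45 tested in RNA1, 0 and 3 of 55 in RNA2, and 2 and 4 of 55 in RNA3, beside 37.6%, 1.7% and 2.8% of all genes tested. Their median log2FC was -0.30 in RNA1, -0.17 in RNA2 and -0.21 in RNA3, against 0.0074, -0.19 and -0.09 over all genes tested. DESeq2 called 22 of 45, 12 of 39 and 6 of 37 with an adjusted p, beside 32.6%, 16.8% and 11.2% of all genes with one. CLSTN2, a calsyntenin, and NTNG1, netrin G1, fell in all 3 experiments. CLSTN2 went from 58.3 ± 8.74 to 24.8 ± 4.71 CPM in RNA2 (SD, n = 3; log2FC -1.23, edgeR adjusted p = 0.00133) and had a log2FC of -0.80 in RNA3 (edgeR adjusted p = 0.00228). NTNG1 had a log2FC of -1.37 in RNA1, -0.93 in RNA2 (edgeR adjusted p = 0.0351) and -0.83 in RNA3 (edgeR adjusted p = 0.00108). The olfactory receptor level was lower in the same libraries, and the mean ratio of NTNG1 to it was 3.02 in Puro and 3.01 in ABCC1 in RNA2 and 1.59 and 1.13 in RNA3. For CLSTN2 this ratio was 6.47 and 5.24 in RNA2 and 5.13 and 3.71 in RNA3. FLRT2 also fell in RNA2 (log2FC -1.62, edgeR adjusted p = 0.0385), with a ratio of 1.27 in Puro and 0.783 in ABCC1, and FLRT3 fell in RNA3 (log2FC -0.68, edgeR adjusted p = 0.0234), with a ratio of 2.19 and 1.73. LRFN4 (log2FC 0.90, edgeR adjusted p = 8.44e-05) and TENM4 (log2FC 0.58, edgeR adjusted p = 0.0471) rose in RNA3. In RNA1 ADGRL3, a latrophilin, fell (log2FC -3.74), and the largest rises were in IGSF21 (0.80), LRRC4B (0.70) and CADM2 (0.58). Of 31 synaptic scaffold genes, 6 were called higher and 9 lower in RNA1, 0 and 1 in RNA2 and none in RNA3, beside the same shares of all genes. At an unadjusted p below 0.05 there were 19, 9 and 4, beside 46.6%, 21.2% and 15.2% of all genes, and DESeq2 called 13 of 31, 5 of 30 and 0 of 30. Their median log2FC was -0.04 in RNA1, 0.25 in RNA2 and 0.07 in RNA3, with 25 of 31 above 0 in RNA2. DLG2, a scaffold of the postsynaptic density, fell in RNA1 (log2FC -0.38) and in RNA2 (log2FC -0.67, edgeR adjusted p = 0.0484), while its mean ratio to the olfactory receptor level in RNA2 was 1.67 in Puro and 2.00 in ABCC1.

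Markers of other cells were read beside these counts, against the 37.6%, 1.7% and 2.8% of all genes called in RNA1, RNA2 and RNA3. Of 6 fibroblast markers 4 were called higher in RNA1, where the list summed to between 134 and 138 CPM in Puro and between 206 and 209 in ABCC1, and COL1A2 had at most 3 counts in every library. Of 7 glial markers 1 was called lower in RNA1, where they summed to 3.55 to 4.63 CPM, and 5 of 6 immune markers had at most 3 counts in every RNA1 library. In RNA3 2 immune markers were called lower and in RNA2 1 endothelial marker, in libraries where the olfactory receptor level was also lower in ABCC1. Of the neuroblastoma markers 3 were called higher and 5 lower in RNA1 and 1 higher and 2 lower in RNA3, while in RNA2 edgeR called 0, with 6 at an unadjusted p below 0.05, beside 21.2% of all genes, and DESeq2 called 4 of 11, beside 16.8%. The part of these markers and of the olfactory receptor level in the values of the 9 genes was not tested beyond the covariate fits given above.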

How the data were processed

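RNA from BE(2)-m17 cells was sequenced in 18 libraries, 3 per line in each of 3 experiments. Per the study's methods, RNA1 used the TruSeq RNA kit v2, and RNA2 and RNA3 the SMARTer Stranded Total RNA kit. For RNA1 the labels name both kits, and the one in the methods was taken. The authors aligned reads with STAR 2.7.3a and counted read pairs on exons per gene with featureCounts (Subread 2.0.0), on Ensembl release GRCh37.74 plus vectors and, per the file headers, without strand. They deposited raw counts over 57905 genes, 92 spike-in controls and 6 vector sequences. Spike-in controls were left out of the fits, and vector sequences were fitted but not counted among the genes. Gene IDs were matched to symbols for 51996 genes, and no column held samples of another series (0).

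Each experiment was fitted alone with edgeR 4.0.16 under R 4.3.3 (filterByExpr at a minimum count of 10, TMM, robust two-sided quasi-likelihood test, Benjamini-Hochberg adjustment over all genes tested, called at 0.05). CPM used TMM library sizes within an experiment, and CPM per kb the merged exon length. A joint fit of RNA2 and RNA3 tested the interaction. The members and gene lists were chosen with earlier results of these data known. Named genes were all members, genes overlapping a member or within 1 Mb of IL1RAPL2, the 5 most similar genes by log2(CPM + 0.1), IL1RAP, and up to 3 called genes per list, direction and experiment; some of these are not reported here. The fits were tested on simulated data with 200 genes changed by a log2 fold of 2. They recovered 100% among 16995 genes for RNA1, 84% among 34091 for RNA2, 98.5% among 36509 for RNA3 and 84.5% among 41448 for the interaction. Alternatives were DESeq2 1.42.0, RLE size factors, no count filter, at least 10 counts in every library, the replicate block, a spread shared over 18 libraries, the olfactory receptor level as a covariate and each library left out. Within groups, library pairs differed by a chi-square statistic of 1.49 to 22.7 per degree of freedom, and each library was counted as 1 replicate. The value of 1.49 was for RNA1 ABCC1 replicates 1 and 2, which differed from replicate 3 by 21.5 and 16.1. RefSeq supplied the promoter windows.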

Additional observations from a re-analysis of the deposited data

Results flagged for a closer look

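NLGN1 had opposite orders of the lines in 2 experiments, and the difference between the experiments was not tested. In RNA1 every ABCC1 library was above every Puro library, at 0.278 ± 0.0422 against 0.119 ± 0.0607 CPM (SD, n = 3), on 2 to 17 counts per library. In RNA3 every ABCC1 library was below every Puro library, with a log2FC of -0.67 that was not called (edgeR adjusted p = 0.0716). NLGN1 was under the count filter in RNA1. Over the genes tested, the lines did not overlap for 50.4% in RNA1 and 19.5% in RNA3. The RNA3 libraries came from another kit than the RNA1 libraries, and NLGN1 was below the olfactory receptor level in RNA3 and above it in RNA1.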

How the results depend on the processing

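With 0 counts in RNA1 Puro, the fitted log2FC of IL1RAPL2 depends on the prior count and is no bound; it ran from 9.63 to 10.58 under the 12 alternatives that could be fitted. With at least 10 counts in every library required, IL1RAPL2 could not be fitted in any experiment, nor NRXN3 in RNA1. Of the members' log2FC values recomputed, 96 in RNA2, 106 in RNA3 and 123 of their difference kept their direction and their side of the threshold, while 9, 5 and 20 changed sign and 11, 5 and 0 kept their direction and passed the threshold. DESeq2 gave no adjusted p to 2 members in RNA2 (IL1RAPL1 and IL1RAPL2) and 3 in RNA3 (these and NLGN3), which count among those kept by direction alone. At RNA2 and RNA3 depth, 6 to 81 counts of IL1RAPL2 per library leave its log2FC open in sign. The number of members called in RNA2, 0, became 3 with DESeq2 (NRXN3, NLGN2 and PTPRD), 1 with RLE size factors, 1 without the count filter (NRXN3 in both), 3 with a shared spread (NRXN3, NLGN2 and PTPRD) and 0 to 2 with 1 library left out, the 2 being NRXN3 and PTPRD without ABCC1 replicate 3. In RNA3, 0 became 1 with DESeq2, 1 with at least 10 counts in every library and 1 with the olfactory receptor level as a covariate (NRXN2 in each), and 0 to 1 with 1 library left out, NLGN1 without ABCC1 replicate 1. The covariate turned the RNA2 log2FC of IL1RAPL1 to 0.19, of IL1RAPL2 to 1.40, of NRXN2 to 0.15, of NLGN1 to 0.67 and of NLGN3 to -0.10, and the RNA3 log2FC of NRXN3 to 0.12, of NLGN2 to -0.32 and of PTPRD to 0.29; none of these was called and the cause was not tested. With 1 library left out, the log2FC ran from -1.48 to 0.37 for IL1RAPL2 in RNA2 and from -0.18 to 0.24 for NLGN2 in RNA3. In RNA2 it kept its sign but ran from -1.57 to -0.27 for NLGN1 and from 0.0015 to 0.41 for NLGN3. The RNA3 minus RNA2 difference then ran from -0.26 to 0.35 for IL1RAPL1, from -0.85 to 1.02 for IL1RAPL2, from -0.36 to 0.97 for NLGN1 and from -0.10 to 0.35 for NLGN3, and for NLGN3 it was -0.056 with DESeq2 and -0.056 with RLE size factors. No member's difference between RNA3 and RNA2 was called under any alternative run.

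The genes called over the whole table moved more. In RNA1, where 6382 were called, the covariate left 120 and a shared spread 1528, and leaving out 1 library gave 4636 to 7827. The covariate separates the lines in RNA1 and RNA2, so it and the line cannot be told apart there. In RNA3 it overlapped in part between the lines. In RNA2, 581 became 2727 with DESeq2, 1086 with RLE size factors, 1402 without the count filter, 4923 with a shared spread and 10 with the covariate. Leaving out Puro replicates 1, 2 and 3 gave 300, 219 and 5, and ABCC1 replicates 1, 2 and 3 gave 207, 24 and 1359. In RNA3, 1021 became 1553 with DESeq2, 1725 with at least 10 counts in every library and 568 with the covariate. Leaving out Puro replicates 1, 2 and 3 gave 470, 2761 and 399, and ABCC1 replicates 1, 2 and 3 gave 2047, 405 and 394. The 3 genes called for the RNA3 minus RNA2 difference became 3 to 23, with 7 without RNA2 Puro replicate 2, 6 without RNA2 ABCC1 replicate 1 and 23 without RNA2 ABCC1 replicate 3. The share of calls that were higher was 73.1% in RNA2, 83.0% with DESeq2, 44.4% with at least 10 counts in every library and 40.0% with the covariate. In RNA3 it was 72.6%, 82.9% with RLE size factors, 89.1% with DESeq2 and 27.3% with the covariate, and in RNA1 it was 47.6% and 36.7% with the covariate.

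Same-numbered libraries of the lines had correlations of their deviations between -0.29 and -0.02 in RNA1, between -0.24 and -0.04 in RNA2, and of 0.32, 0.22 and -0.15 in RNA3, so the replicate numbers were not taken as pairs. With the replicate block 1 member was called in RNA2, NRXN3 (log2FC -1.0, edgeR adjusted p = 0.0242), and 1 in RNA3, NLGN1 (log2FC -0.70, edgeR adjusted p = 0.0236). The block called 709 genes in RNA2 and 1885 in RNA3.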
